A study of Mus musculus with 7 samples.

Results

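The cells described here were GABAergic interneurons with little or no somatostatin in cultured mouse hippocampus. They were chosen by transcript counts: a barcode needed 500 or more genes with a read and no more than 10% of its UMIs from mitochondrial genes (UMIs are unique molecular identifiers, each standing for 1 captured transcript). It also needed at least 1 UMI each of Gad1 and Gad2, at least 3 of both together, at most 2 of Neurod2 and Neurod6 together, and under 5 of Sst. Of 26709 kept cells in 7 libraries, 219 met the rule and are called members below. The cultures came from hippocampi of newborn (P0) mice, dissociated with trypsin and grown on coated glass, and were harvested after 1, 3, 5 or 7 days in vitro (DIV). DIV1 had 1 droplet 3′ library, and DIV3, DIV5 and DIV7 had 2 each; the labels give no genotype, treatment, strain or sex. The cultures held neurons beside glia and other cells, and the labels do not say how single cells were sorted before capture. They also do not say whether the 2 libraries of a day came from separate cultures, so p-values measure the spread between libraries, which may be technical.

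Interneurons make GABA from glutamate with the glutamate decarboxylases Gad1 and Gad2 and load it into vesicles with Slc32a1 (VGAT). Hippocampal interneurons are born outside the hippocampus, in the medial and caudal ganglionic eminences of the embryo, and migrate in. Cells from the medial eminence keep the transcription factor Lhx6 and give rise to the parvalbumin, somatostatin and many of the neuropeptide Y cells. Cells from the caudal eminence express Adarb2 and give rise to the cholecystokinin and CB1 receptor cells, the vasoactive intestinal peptide cells and others. Their transmitter is depolarising in young neurons and becomes hyperpolarising as the chloride exporter Slc12a5 (KCC2) rises over the importer Slc12a2 (NKCC1).

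The libraries held 3009 to 5401 barcodes and 36226566 to 114119537 UMIs each, and 2838 to 5144 cells per library were kept. The members numbered 45 on DIV1, 21 and 12 on DIV3, 51 and 41 on DIV5, and 34 and 15 on DIV7, and their summed UMIs ran from 104247 in DIV3 replicate 2 to 536221 in DIV5 replicate 1. Their median depth was 4419 UMIs on DIV1, 10849 and 7291.5 on DIV3, 9763 and 12346 on DIV5, and 13784.5 and 16359 on DIV7. Depth per member was therefore lowest in the DIV1 library and highest in both DIV7 libraries, and the median mitochondrial share of the members went the same way, with 2.80% on DIV1, 3.05% and 3.58% on DIV3, 4.43% and 4.28% on DIV5, and 5.68% and 4.71% on DIV7. The mitochondrial limit took 16.3% of the barcodes that had enough genes in DIV7 replicate 1 and 1.01% to 5.41% in the others. Pairs of libraries shared 10 to 34 kept barcodes, 405 in all; no barcode was a member in 2 libraries, and 7 of the 219 members had a barcode kept in another library.

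The rule cut through counts that were often low. The sum of Gad1 and Gad2 was exactly 3 in 11 members at DIV1 and in 0 or 1 member of each other library, and its median was 5 on DIV1, 8 and 6 on DIV3, 9 and 11 on DIV5, and 13 and 20 on DIV7. Just outside, 8 cells at DIV1 and 0 to 4 in each other library had a sum of 2. Somatostatin was at 0 UMIs in 40 of 45 members at DIV1 and in all 21 of DIV3 replicate 1; the members just inside, with 1 to 4 UMIs, numbered 0 to 6 per library, and 0 to 4 cells per library lay just outside with 5 to 9. The limit on Neurod2 and Neurod6 put out 52 cells at DIV1 and 0 to 2 in each other library.

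Slc32a1, which the rule did not use, was in keeping with the label: 182 of 219 members, 83.1%, held at least 1 UMI. In microglia of the same libraries, which should lack the gene, the share was 4 of 850 cells, 0.471%, at median depths of 12203 to 30527 UMIs per library. The vesicular GABA transporter stood at 178 CPM on DIV1, 217 and 275 on DIV3, 249 and 234 on DIV5, and 246 and 216 on DIV7, where CPM are counts scaled to a common total of the genes tested, summed over the members of a library and scaled by edgeR's TMM factors. The 7 libraries overlapped without order, and DIV7 against DIV3 gave no call (edgeR log2 fold change -0.06 ± 0.29, adjusted p = 0.935). Here and below a change is a log2 fold change ± SE from edgeR's two-sided quasi-likelihood test with Benjamini-Hochberg adjustment over all genes tested, and it passed where the adjusted p was under 0.05. The fit over days held no replicate block, and a change that did not pass is not shown to be absent. Gad1, used in the choice, stood at 489 CPM on DIV1, 398 and 426 on DIV3, 478 and 485 on DIV5, and 504 and 769.6 on DIV7. Gad2 stood at 370.5 CPM on DIV1, 362 and 284 on DIV3, 466 and 579 on DIV5, and 659 and 765 on DIV7.

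Markers of other cells were uneven. Slc17a7, a vesicular glutamate transporter, was at 0 in every member, and the 4 glutamatergic markers that the rule did not use summed to 65.8 CPM of total UMIs on DIV1 and to 0 afterwards. No member had 3 UMIs of the 8 microglia and macrophage markers, whose sum ranged from 0 to 42.1 CPM with Mrc1 at 0. Radial glia and astrocyte markers had summed levels of 859 CPM of total UMIs on DIV1, 909 and 297 on DIV3, 890 and 1259 on DIV5, and 1681 and 779 on DIV7, against 1807 to 16736 CPM over all kept cells. Members with at least 3 such UMIs numbered 8 on DIV1, 7 and 3 on DIV3, 23 and 28 on DIV5, and 25 and 14 on DIV7. That number also depends on depth per cell, and the summed levels had no order by day. Cajal-Retzius markers summed to 227 CPM of total UMIs on DIV1, 116 and 115 on DIV3, 323 and 547 on DIV5, and 207 and 202 on DIV7, against 10.1 to 125 CPM over all kept cells. They were higher in members than over all kept cells in every library, and on DIV3 the 1 marker seen of 5 was Reln, which interneurons also make. Oligodendrocyte markers stood at 475 CPM in members of DIV5 replicate 2, where 4 of 41 members had at least 3 such UMIs, against 334 CPM over all kept cells, and at 8.42 to 125 CPM in members of the other libraries. Mural cell markers stood at 166 CPM in members of DIV3 replicate 1 and at 3.65 to 48.5 CPM in those of the others, and the ciliated, fibroblast, endothelial, erythroid and cycling lists at 0 to 109.6 CPM. The part of RNA from these cells in the results below was not tested.

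Members made up 1.10% of kept cells at DIV1 (95% exact binomial interval 0.802% to 1.47%), 0.408% (0.253% to 0.623%) and 0.423% (0.219% to 0.737%) on DIV3, 1.19% (0.884% to 1.56%) and 1.06% (0.763% to 1.44%) on DIV5, and 1.15% (0.798% to 1.60%) and 0.427% (0.239% to 0.703%) on DIV7. Intervals here cover counting error only. The DIV3 libraries were both low, both DIV5 libraries were high, and the 2 DIV7 libraries lay far apart. Over the 7 libraries the share had no relation to day that passed (Pearson r = 0.0765, exact two-sided permutation p = 0.825, adjusted over 5 shares 0.838; Spearman rho = 0.312, p = 0.502, adjusted 0.627). A share of this kind depends on all other cells of the culture and says nothing of how many interneurons a dish held.

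**Figure D1:**
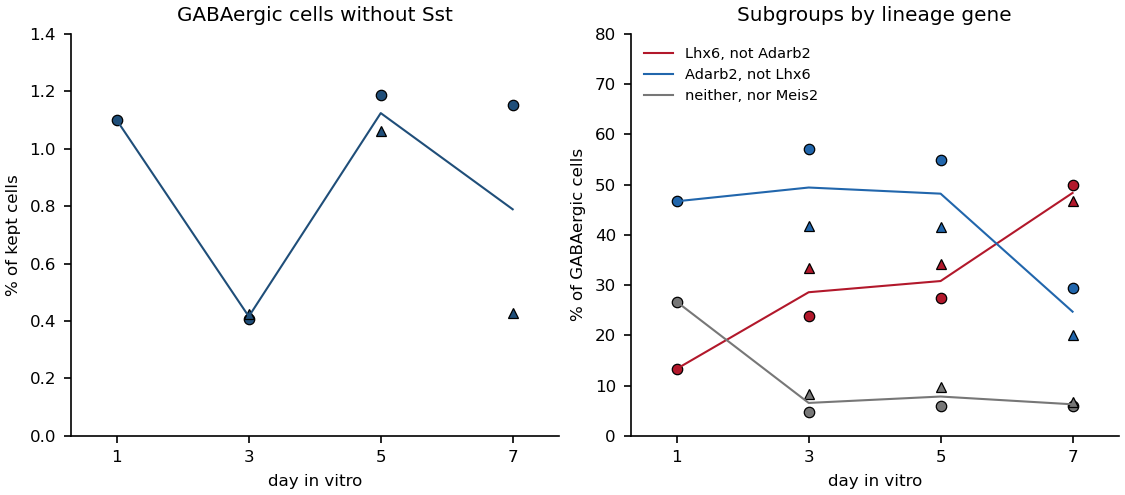
Left, members as a percentage of kept cells against days in vitro; right, the percentage of members with Lhx6 UMIs only, Adarb2 UMIs only or neither, against days in vitro. Each circle is replicate 1 and each triangle replicate 2 of a day, and lines join the means; the Lhx6 share is 13.3% on DIV1 and 50.0% and 46.7% on DIV7.

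The transcription factors that mark all forebrain interneurons were present on every day. Dlx1 stood at 63.0 CPM on DIV1, 145 and 256 on DIV3, 206 and 178 on DIV5, and 267 and 139 on DIV7. Dlx5 stood at 51.9 CPM on DIV1, 56.4 and 123 on DIV3, 136 and 127 on DIV5, and 131 and 106 on DIV7. Dlx2, which acts upstream of both Gad genes, stood at 48.2 CPM on DIV1, 72.5 and 152 on DIV3, 113 and 137 on DIV5, and 242 and 197 on DIV7. The DIV1 library was the lowest for all 3, and Dlx2 rose by 0.33 ± 0.07 log2 units per day over the 7 libraries (edgeR, adjusted p = 0.00954). Between DIV7 and DIV3 its change did not pass (edgeR log2 fold change 1.10 ± 0.37, adjusted p = 0.112). The long noncoding RNA Dlx6os1 had 356 CPM on DIV1, 233 and 237 on DIV3, 289 and 292 on DIV5, and 286 and 259.7 on DIV7, and its change did not pass. In the list of 9 such factors 8 could be tested, and 0 passed between DIV7 and DIV3.

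Lineage genes split the members. Of 219, 67 had Lhx6 and no Adarb2 UMI (called Lhx6 cells), 96 had Adarb2 and no Lhx6 UMI (Adarb2 cells), 25 had both, 7 had neither but at least 2 UMIs of Meis2, a factor of lateral eminence and striatal neurons, and 24 had none. Median depth was 12257 UMIs in Lhx6 cells, 10348.5 in Adarb2 cells, 11529 in cells with both and 5561.5 in cells with none, so the last class held shallow cells. The Lhx6 share of members was 13.3% on DIV1, 23.8% and 33.3% on DIV3, 27.5% and 34.1% on DIV5, and 50.0% and 46.7% on DIV7. Both DIV7 libraries lay above all others, and the share rose with day (Pearson r = 0.917, exact two-sided permutation p = 0.00476, adjusted over 5 shares 0.0238). Spearman's rho was 0.899 (exact p = 0.0127, adjusted 0.0635), and with the 2 libraries farthest from the median day left out, in each of the possible ways, r was 0.776 to 0.942. The Adarb2 share was 46.7% on DIV1, 57.1% and 41.7% on DIV3, 54.9% and 41.5% on DIV5, and 29.4% and 20.0% on DIV7, lowest in both DIV7 libraries, but its relation to day did not pass (r = -0.671, exact p = 0.103, adjusted 0.172). Levels summed over members also depend on this mix of classes, and its part in the day changes below was not tested.

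A cell with few UMIs can miss a low gene, and depth rose with day. With every member thinned at random to 3000 UMIs, which left out 14 shallower members, the relation of the Lhx6 share to day no longer passed (r = 0.667, exact p = 0.121, adjusted 0.241). Under a stricter cell filter of at least 1000 genes and at most 5% mitochondrial UMIs, r was 0.875 with an adjusted exact p of 0.167 over 6 libraries, and there the Adarb2 share turned to a positive relation (r = 0.692, exact p = 0.122). The stricter filter left 9 members in DIV7 replicate 2, under the minimum of 10. That library therefore left the subgroup shares and every test of summed counts under this filter, and DIV7 rested on 11 members of replicate 1. With thinned members the relation of the Adarb2 share was negative (r = -0.857, exact p = 0.0206, adjusted 0.0825). Leaving out 1 library at a time gave r of 0.849 to 0.963 for the Lhx6 share, and the adjusted p was over 0.05 when the DIV1 library, DIV3 replicate 1, DIV5 replicate 2 or either DIV7 library was left out.

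Among the genes of the medial eminence lineage, Lhx6 itself stood at 51.9 CPM on DIV1, 80.5 and 199 on DIV3, 105 and 109 on DIV5, and 145 and 207 on DIV7 and did not pass between DIV7 and DIV3 (edgeR log2 fold change 0.44 ± 0.40, adjusted p = 0.564). Nxph1, a secreted ligand of neurexins made by these cells, stood at 104 CPM on DIV1, 56.4 and 66.3 on DIV3, 139.8 and 127 on DIV5, and 209 and 240.5 on DIV7. Both DIV7 libraries were above all others, and Nxph1 rose between DIV7 and DIV3 (edgeR log2 fold change 1.89 ± 0.36, adjusted p = 0.00963). It was the 1 call among 12 tested genes of this list; over all genes 254 of 6252, 4.06%, passed in this comparison, 184 (2.94%) higher and 70 (1.12%) lower at DIV7. The call on Nxph1 was lost without DIV3 replicate 1 or DIV7 replicate 2.

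Neuropeptide Y, made by many hippocampal interneurons, had 182 CPM on DIV1, 209 and 786 on DIV3, 419.5 and 592 on DIV5, and 2007 and 1356 on DIV7, highest in both DIV7 libraries, with a change that did not pass (edgeR log2 fold change 1.85 ± 0.62, adjusted p = 0.18). Maf had 189 CPM on DIV1, 258 and 606 on DIV3, 279.7 and 343 on DIV5, and 621 and 904 on DIV7 and did not pass either (adjusted p = 0.196 by edgeR). Sox6, needed for the maturation of Lhx6 cells, was low everywhere, with 37.0 CPM on DIV1, 20.1 and 56.8 on DIV3, 11.7 and 12.9 on DIV5, and 4.69 and 9.62 on DIV7. Tac1, the substance P precursor, had 77.8 CPM on DIV1, 24.1 and 28.4 on DIV3, 27.2 and 442 on DIV5, and 197 and 236 on DIV7. Nos1, nitric oxide synthase, had 11.1 CPM on DIV1, 20.1 and 37.9 on DIV3, 3.88 and 25.7 on DIV5, and 56.3 and 72.1 on DIV7. Both were highest at DIV5 or DIV7, but neither passed. Parvalbumin was nearly absent, with 2 UMIs on DIV1, 0 and 0 on DIV3, 1 and 8 on DIV5, and 5 and 10 on DIV7. Sst, limited by the rule, had 9 UMIs on DIV1, 0 and 4 on DIV3, 7 and 8 on DIV5, and 6 and 4 on DIV7. No member held Lhx8 or Isl1, factors of cholinergic and striatal neurons.

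Of the caudal eminence genes, Adarb2 stood at 393 CPM on DIV1, 294 and 455 on DIV3, 319 and 206 on DIV5, and 124 and 173 on DIV7. Both DIV7 libraries were below all others, and the gene fell between DIV7 and DIV3 (edgeR log2 fold change -1.32 ± 0.34, adjusted p = 0.0392) and over the days (edgeR log2 change per day -0.25 ± 0.06, adjusted p = 0.0201). The fall between DIV7 and DIV3 was the 1 call among 18 tested genes of the list and was lost under 11 of 19 alternatives. Prox1, a factor of caudal eminence cells, had 85.2 CPM on DIV1, 40.2 and 152 on DIV3, 73.8 and 109 on DIV5, and 84.4 and 67.3 on DIV7. Nr2f2 (COUP-TFII) had 141 CPM on DIV1, 52.3 and 66.3 on DIV3, 177 and 98.6 on DIV5, and 115 and 111 on DIV7; neither showed an order by day. Cnr1, the CB1 cannabinoid receptor, had 270.5 CPM on DIV1, 173 and 691 on DIV3, 453 and 229 on DIV5, and 312 and 433 on DIV7. Cholecystokinin (Cck) had 963 CPM on DIV1, 443 and 616 on DIV3, 286 and 114 on DIV5, and 223 and 914 on DIV7. The matrix protein reelin (Reln) had 170.4 CPM on DIV1, 121 and 114 on DIV3, 287 and 525 on DIV5, and 213 and 226 on DIV7. Each of these 3 had a day whose libraries lay far apart, and none of them passed. Vip was confined to few cells, with 0 UMIs on DIV1, 0 and 0 on DIV3, 45 and 4 on DIV5, and 24 and 0 on DIV7, from 3 cells in DIV5 replicate 1, 1 in DIV5 replicate 2 and 2 in DIV7 replicate 1.

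**Figure D2:**
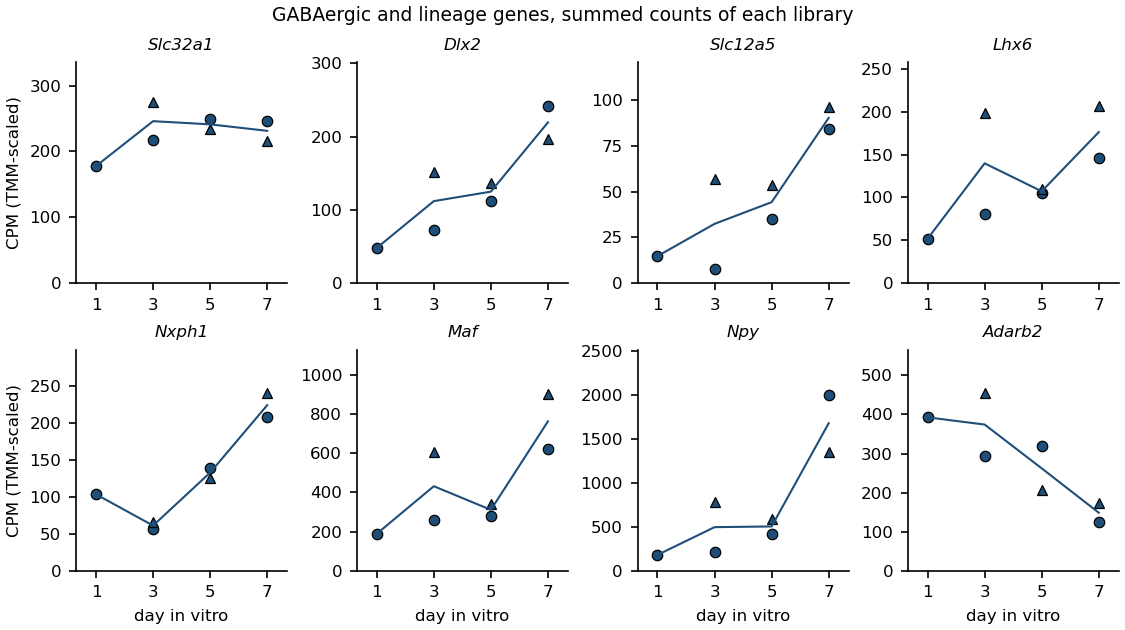
CPM of 8 interneuron genes summed over members per library, against days in vitro; circles are replicate 1, triangles replicate 2, and lines join day means. Slc32a1 stays between 178 and 275 CPM, while Nxph1 reaches 209 and 240.5 CPM at DIV7.

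Among the genes of GABA handling outside the rule, Abat, which breaks GABA down, had 18.5 CPM on DIV1, 36.2 and 66.3 on DIV3, 48.6 and 47.2 on DIV5, and 75.0 and 57.7 on DIV7 and did not pass. The chloride exporter Slc12a5 had 14.8 CPM on DIV1, 8.05 and 56.8 on DIV3, 35.0 and 53.6 on DIV5, and 84.4 and 96.2 on DIV7. Both DIV7 libraries were its highest and it rose over the days (edgeR log2 change per day 0.45 ± 0.11, adjusted p = 0.0184), whereas its change between DIV7 and DIV3 did not pass (edgeR log2 fold change 1.87 ± 0.63, adjusted p = 0.114). The importer Slc12a2 had 25.9 CPM on DIV1, 4.03 and 28.4 on DIV3, 5.83 and 45.0 on DIV5, and 11.7 and 9.62 on DIV7, with libraries of 1 day differing by more than the days (edgeR log2 fold change -0.16 ± 1.36, adjusted p = 0.962).

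The 5 genes whose log2 CPM over the 7 libraries ran most like that of Slc32a1 were Nudt9, Nap1l3, Dlx1, Rab5a and Iglon5, with Pearson r of 0.969, 0.968, 0.963, 0.960 and 0.957. Slc32a1 itself moved little over these libraries, which share their depth with every gene, so the likeness is given as a description.

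The most frequent change of any list was in the activity-regulated genes, which neurons transcribe within minutes to hours of firing and calcium entry. Of 27 tested, 17 were higher at DIV7 than at DIV3 and 0 were lower, with a median log2 fold change of 2.37 against -0.03 over all 6252 genes. Their summed level was 2957 CPM on DIV1, 2310.3 and 2482 on DIV3, 4959 and 9620.2 on DIV5, and 10979 and 12024 on DIV7. The DIV1 and DIV3 libraries lay together, DIV5 was between, and both DIV7 libraries were highest. Fos, a subunit of the AP-1 factor, stood at 474 CPM on DIV1, 531 and 625 on DIV3, 1259 and 2621 on DIV5, and 2284 and 2982 on DIV7 (edgeR log2 fold change 2.19 ± 0.33, adjusted p = 0.00408). Its partner Junb stood at 104 CPM on DIV1, 129 and 171 on DIV3, 573 and 1029 on DIV5, and 1320.2 and 986 on DIV7 (edgeR log2 fold change 2.99 ± 0.35, adjusted p = 0.000466). For both, every DIV5 and DIV7 library was above every DIV1 and DIV3 library.

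Npas4, a factor that neurons induce on calcium entry and that organises inhibitory synapses, stood at 48.2 CPM on DIV1, 96.6 and 56.8 on DIV3, 258 and 529.7 on DIV5, and 518 and 558 on DIV7 (edgeR log2 fold change 2.71 ± 0.40, adjusted p = 0.00253). Btg2, an antiproliferative early gene, had 81.5 CPM on DIV1, 72.5 and 85.3 on DIV3, 126 and 289.5 on DIV5, and 469 and 659 on DIV7 (edgeR log2 fold change 2.85 ± 0.43, adjusted p = 0.00408). Egr1, a zinc finger factor, had 92.6 CPM on DIV1, 56.4 and 47.4 on DIV3, 245 and 684 on DIV5, and 586 and 827 on DIV7 (edgeR log2 fold change 3.71 ± 0.55, adjusted p = 0.00903). In all 3 both DIV7 libraries were above both DIV3 libraries, an order that 1596 of all 6252 genes, 25.5%, had, and DIV5 replicate 2 was above DIV5 replicate 1. Jun had 252 CPM on DIV1, 205 and 142 on DIV3, 449 and 566 on DIV5, and 870.0 and 957 on DIV7 and rose in each of 19 alternatives (edgeR log2 fold change 2.34 ± 0.30, adjusted p = 0.000488). Plk2, a kinase of activity-dependent synaptic scaling, had 204 CPM on DIV1, 161 and 237 on DIV3, 339.9 and 465 on DIV5, and 685 and 539 on DIV7 (edgeR log2 fold change 1.67 ± 0.31, adjusted p = 0.00947).

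Some early genes were near 0 before DIV5. Egr2 had 0 UMIs on DIV1, 0 and 1 on DIV3, 7 and 26 on DIV5, and 54 and 24 on DIV7, which between DIV7 and DIV3 is a ratio of 43.5 (95% interval 7.59 to 1741, counting error only), and its edgeR adjusted p was 0.0142. Klf4, a zinc finger factor, had 5 UMIs on DIV1, 3 and 0 on DIV3, 40 and 38 on DIV5, and 141 and 38 on DIV7, a ratio of 33.3 (95% interval 11.2 to 163, counting error only) with an edgeR adjusted p of 0.000473. Egr3 had 5 UMIs on DIV1, 1 and 0 on DIV3, 17 and 33 on DIV5, and 33 and 15 on DIV7, a ratio of 26.8 (95% interval 4.58 to 1079.8, counting error only) with an edgeR adjusted p of 0.0107. The fitted fold changes of such genes depend on the prior count and are left out here. Also called were Fosb, Fosl2, Nr4a1, Nr4a2, Ier2, Vgf and Nptx2, a secreted pentraxin that clusters AMPA receptors, with log2 fold changes from 1.37 for Fosl2 to 3.35 for Nr4a2. Fosl2 had the highest adjusted p of these 7 by edgeR, 0.0367.

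Not every activity gene passed. Bdnf, a neurotrophin that principal neurons induce, had 85.2 CPM on DIV1, 8.05 and 75.8 on DIV3, 23.3 and 17.2 on DIV5, and 44.6 and 52.9 on DIV7 (edgeR log2 fold change 0.63 ± 0.71, adjusted p = 0.653). Arc, a synaptic early gene, had 2 UMIs on DIV1, 0 and 0 on DIV3, 3 and 6 on DIV5, and 22 and 5 on DIV7, at least 5.02-fold higher at DIV7 by the limit of 3 counts over both DIV3 libraries, with an adjusted p of 0.0697 by edgeR. Homer1 had 59.3 CPM on DIV1, 52.3 and 56.8 on DIV3, 77.7 and 161 on DIV5, and 108 and 149 on DIV7 (adjusted p = 0.154 by edgeR). For Bdnf the libraries of DIV3 lay further apart than the days. The count of calls in the list rested on the DIV3 libraries: without DIV3 replicate 1, which leaves 12 members at DIV3, 2 of 27 passed with a median of 2.52, against 0.169% of all genes, and without DIV3 replicate 2, 13 of 28 passed, against 4.27% of all genes. With the stricter cell filter 7 of 26 passed, against 13 of 5935 genes in all, 0.219%. That filter also took out DIV7 replicate 2, so its effect and that of the lost library cannot be told apart. With each member thinned to 3000 UMIs 9 of 21 passed, with a median of 2.24, against 71 of 3138 genes in all, 2.26%. The cultures were digested with trypsin before capture, and the part of that step in the list's levels was not tested.

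As a trend over the 7 libraries, 507 of 6252 genes, 8.11%, passed, of which 334 (5.34%) rose and 173 (2.77%) fell; Gad2, which chose the cells, is among the calls of both tests. In this test 17 of the 27 activity genes rose and 0 fell, with a median of 0.44 log2 units per day against -0.01 over all genes. Scaling by total counts in place of TMM gave 139 higher and 102 lower between DIV7 and DIV3, and 249 rises and 264 falls as a trend, with the median of all genes at -0.15 and -0.03 log2 units in turn. Between DIV3 and DIV1 only 1 gene of 6252, 0.016%, passed, Tshz2, a zinc finger factor with 63 UMIs on DIV1, of which 43 came from 1 cell, and 0 on DIV3. DESeq2 called 0 genes there, and 523 genes had an unadjusted edgeR p under 0.05; the lone DIV1 library is assumed to vary like the others. No listed gene passed between DIV3 and DIV1.

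**Figure D3:**
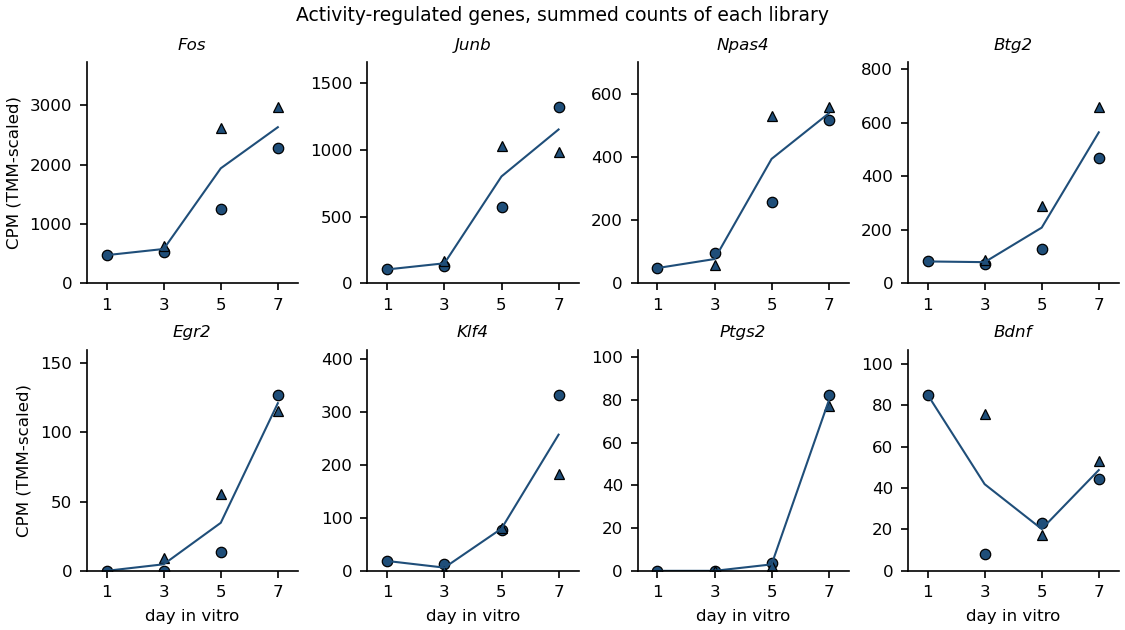
CPM of 8 activity-related genes summed over members per library, against days in vitro; circles are replicate 1, triangles replicate 2, and lines join day means. Fos, Junb, Npas4 and Btg2 are above their DIV1 and DIV3 libraries in every DIV5 and DIV7 library, Egr2, Klf4 and Ptgs2 are near 0 CPM at DIV3, and Bdnf has no such order.

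The promoters of 4 of these risers are shown because they hold the short DNA word that the calcium-responsive factor CREB binds. They are the 250 bases before the RefSeq gene start in build GRCm38.p6, read 5′ to 3′ on the gene's strand, and capitals mark TGACGT or, where the word lies on the other strand, its complement ACGTCA. They cover chr12:85473640-85473889 on the plus strand for Fos, chr19:4989972-4990221 on the minus strand for Npas4, chr1:134079156-134079405 on the minus strand for Btg2 and chr13:110394794-110395043 on the plus strand for Plk2.
Fos: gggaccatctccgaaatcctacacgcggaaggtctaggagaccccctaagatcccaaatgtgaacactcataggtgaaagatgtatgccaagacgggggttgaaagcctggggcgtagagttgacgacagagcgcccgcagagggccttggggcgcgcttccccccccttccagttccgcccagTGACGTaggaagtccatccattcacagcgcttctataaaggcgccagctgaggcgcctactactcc
Npas4: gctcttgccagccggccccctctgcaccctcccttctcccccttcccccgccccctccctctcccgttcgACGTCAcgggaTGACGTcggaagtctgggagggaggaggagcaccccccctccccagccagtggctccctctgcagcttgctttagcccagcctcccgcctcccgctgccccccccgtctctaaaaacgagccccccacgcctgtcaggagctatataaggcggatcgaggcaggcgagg
Btg2: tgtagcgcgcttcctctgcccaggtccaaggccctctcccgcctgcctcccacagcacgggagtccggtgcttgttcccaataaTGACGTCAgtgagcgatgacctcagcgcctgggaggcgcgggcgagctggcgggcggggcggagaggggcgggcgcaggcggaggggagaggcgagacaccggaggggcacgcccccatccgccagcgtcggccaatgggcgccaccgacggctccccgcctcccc
Plk2: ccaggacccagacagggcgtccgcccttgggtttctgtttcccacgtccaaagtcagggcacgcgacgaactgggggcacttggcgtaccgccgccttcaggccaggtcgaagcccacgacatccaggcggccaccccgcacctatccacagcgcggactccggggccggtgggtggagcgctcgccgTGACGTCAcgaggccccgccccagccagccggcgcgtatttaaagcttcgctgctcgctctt
Counted from the gene start, the matches begin at base -66 for Fos, -180 and -169 for Npas4, -166 and -164 for Btg2, and -62 and -60 for Plk2; in Btg2 and Plk2 both lie in 1 copy of TGACGTCA, which reads the same on both strands.

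The word TGACGT, on either strand, was in 1971 of 27025 promoters, 7.29%. Of the 31 listed activity genes 24 had a promoter in the table and 14 of these, 58.3%, held it. Of the 17 that rose 12 had one and 5, 41.7%, held it: Fos, Npas4, Btg2, Plk2 and Egr2. The longer TGACGTCA was in 1.77% of all promoters and in 5 of the 24, 20.8%. The CArG box, to which serum response factor binds, was in 1.62% of all promoters and in 2 of the 24, 8.33%, Egr2 and Dusp5. A match is a description of these letters, not a bound site.

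Genes of the presynaptic terminal were called as well. Of 41 tested, 13 were higher at DIV7 than at DIV3 and 0 were lower, with a median log2 fold change of 1.03, and 17 rose as a trend over days. Their summed level was 5291 CPM on DIV1, 5124 and 5816 on DIV3, 7839 and 8898 on DIV5, and 11162 and 12808 on DIV7. The day means were higher at each step from DIV3 on, and both DIV7 libraries were highest. Among the called genes, the vesicle-binding protein Sncb had 74.1 CPM on DIV1, 129 and 75.8 on DIV3, 297 and 397 on DIV5, and 483 and 774 on DIV7 (edgeR log2 fold change 2.52 ± 0.36, adjusted p = 0.00147).

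Cplx1, a complexin that clamps fusion, had 88.9 CPM on DIV1, 68.4 and 114 on DIV3, 186 and 313 on DIV5, and 394 and 697 on DIV7 (edgeR log2 fold change 2.65 ± 0.41, adjusted p = 0.00408). Syt4, an atypical synaptotagmin, had 433 CPM on DIV1, 237 and 142 on DIV3, 474 and 658 on DIV5, and 788 and 707 on DIV7 (edgeR log2 fold change 1.92 ± 0.31, adjusted p = 0.00408). In Cplx1 the libraries ran upward from DIV5 on, whereas Syt4 on DIV1 was already above both DIV3 values. Synaptophysin (Syp) had 77.8 CPM on DIV1, 20.1 and 75.8 on DIV3, 91.3 and 109 on DIV5, and 131 and 202 on DIV7 (edgeR log2 fold change 2.05 ± 0.50, adjusted p = 0.0352). The SNARE protein Snap25 had 285 CPM on DIV1, 318 and 237 on DIV3, 377 and 553 on DIV5, and 589 and 702 on DIV7 (edgeR log2 fold change 1.18 ± 0.30, adjusted p = 0.0361); the call on Snap25 was lost under 13 of 19 alternatives. The calcium sensor Syt1 had 333 CPM on DIV1, 289.8 and 407 on DIV3, 307 and 455 on DIV5, and 459.6 and 885 on DIV7 and did not pass (edgeR log2 fold change 0.96 ± 0.35, adjusted p = 0.136). The called genes also included Syn1, Syn2, Sv2a, Vamp2, Rph3a, Napb and Dnm1, with log2 fold changes from 0.94 for Vamp2 to 2.19 for Dnm1. Without DIV3 replicate 1, 3 of 42 genes of the list passed, and without DIV7 replicate 2, 4 of 42, against 0.781% of all genes; with the stricter filter 1 of 41 passed, and with thinned cells 4 of 30.

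Some receptors for glutamate, through which interneurons are driven, rose too. In that list 7 of 28 genes were higher at DIV7 and 0 were lower, with a median of 1.11. The metabotropic receptor Grm5 had 44.5 CPM on DIV1, 36.2 and 66.3 on DIV3, 103 and 202 on DIV5, and 244 and 298 on DIV7 (edgeR log2 fold change 2.52 ± 0.45, adjusted p = 0.00872). The AMPA receptor subunit Gria1 had 92.6 CPM on DIV1, 153 and 152 on DIV3, 200.1 and 253 on DIV5, and 410.4 and 423 on DIV7 (edgeR log2 fold change 1.45 ± 0.30, adjusted p = 0.0142). Its auxiliary protein Cnih2 had 33.3 CPM on DIV1, 173 and 142 on DIV3, 330.2 and 251 on DIV5, and 572 and 409 on DIV7 (edgeR log2 fold change 1.62 ± 0.31, adjusted p = 0.0101). For all 3, both DIV7 libraries were above both DIV3 libraries, as for 25.5% of all genes. The other calls were the scaffolds Dlg2 and Shank1, the AMPA regulator Cacng3 and Nptx2. In replicate 1 of DIV3 and DIV7, Gria1 had 274 and 491 CPM of total UMIs in Lhx6 cells, against 91.6 and 95.4 in Adarb2 cells. The summed list was higher on DIV7 than on DIV3 in both classes, but replicate 2 of both days rested on few cells. It went from 2020 and 3164 CPM on DIV3 to 4174 and 4027 on DIV7 in Lhx6 cells, and from 1747 and 1877 to 3156 and 2938 in Adarb2 cells. Replicate 2 had 4 Lhx6 cells and 5 Adarb2 cells on DIV3, and 7 Lhx6 cells and 3 Adarb2 cells on DIV7. The part of the changed mix of classes was not tested. Without DIV3 replicate 1 none of 29 passed by edgeR, with the stricter filter none of 25, and with thinned cells 2 of 19.

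Of 17 genes of the inhibitory postsynapse, which receives the members' own transmitter, 2 were higher at DIV7, Gabrg3 and Gabbr2. Gabrg3, a GABA-A receptor subunit, had 22.2 CPM on DIV1, 12.1 and 9.47 on DIV3, 25.2 and 53.6 on DIV5, and 75.0 and 183 on DIV7 (edgeR log2 fold change 3.40 ± 0.72, adjusted p = 0.0167). Gabbr2, a GABA-B receptor subunit, had 92.6 CPM on DIV1, 101 and 37.9 on DIV3, 196 and 193 on DIV5, and 192 and 269 on DIV7 (edgeR log2 fold change 1.55 ± 0.39, adjusted p = 0.0352). Gabra2, a common subunit, did not pass. It had 219 CPM on DIV1, 76.5 and 75.8 on DIV3, 128 and 197 on DIV5, and 53.9 and 159 on DIV7. Its DIV1 library was higher than both DIV3 libraries, and no order by day followed. The anchoring protein Gphn had 44.5 CPM on DIV1, 40.2 and 28.4 on DIV3, 56.3 and 45.0 on DIV5, and 30.5 and 48.1 on DIV7 (adjusted p = 0.989 by edgeR).

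Of 27 voltage-gated channel genes 2 passed, with a list median of 1.61. Scn2a, a sodium channel of axons, had 33.3 CPM on DIV1, 28.2 and 18.9 on DIV3, 73.8 and 83.6 on DIV5, and 84.4 and 135 on DIV7 (edgeR log2 fold change 2.06 ± 0.50, adjusted p = 0.0307). Cacnb4, a calcium channel subunit, had 92.6 CPM on DIV1, 32.2 and 18.9 on DIV3, 66.0 and 112 on DIV5, and 136 and 149 on DIV7 (edgeR log2 fold change 2.33 ± 0.48, adjusted p = 0.0137). Kcnc1, the potassium channel of fast-spiking cells, had 48.2 CPM on DIV1, 40.2 and 66.3 on DIV3, 60.2 and 55.8 on DIV5, and 89.1 and 91.4 on DIV7 and did not pass (edgeR log2 fold change 0.86 ± 0.44, adjusted p = 0.282). The 3 genes called among 37 of synaptic adhesion were Lrrtm2, a ligand of neurexins, at 33.3 CPM on DIV1, 12.1 and 28.4 on DIV3, 58.3 and 105 on DIV5, and 131 and 115 on DIV7, and Cntn1 and Tenm1. Both DIV7 libraries were above both DIV3 libraries in all 3, as for 25.5% of all genes. Among 11 calcium-binding proteins, the sensors Vsnl1, Ncald, Ncs1 and Calm2 passed, with log2 fold changes of 2.34, 1.54, 1.59 and 0.98. Without DIV3 replicate 1, 0 genes of the adhesion and calcium-binding lists passed by edgeR.

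Axon genes divided. Stmn2, a tubulin-binding protein of growth cones, had 1286 CPM on DIV1, 1421 and 1118 on DIV3, 2494 and 3603 on DIV5, and 3382 and 3530.4 on DIV7 (edgeR log2 fold change 1.44 ± 0.25, adjusted p = 0.00872). Neurofilament light chain (Nefl) had 182 CPM on DIV1, 16.1 and 28.4 on DIV3, 36.9 and 70.8 on DIV5, and 202 and 129.9 on DIV7 (edgeR log2 fold change 3.05 ± 0.53, adjusted p = 0.00826). Gap43 had 919 CPM on DIV1, 616 and 701 on DIV3, 1327 and 1034 on DIV5, and 1360.1 and 1149.5 on DIV7 (edgeR log2 fold change 0.94 ± 0.25, adjusted p = 0.0472), a call lost under 17 of 19 alternatives. These were the 3 calls among 23 tested genes of axon growth. Stmn2 was high in every DIV5 and DIV7 library, whereas Nefl had its lowest values at DIV3 and DIV5 and its DIV1 value was close to those of DIV7. Of 18 migration genes 1 passed, Ntrk2, the BDNF receptor, with 285 CPM on DIV1, 157 and 199 on DIV3, 367 and 585 on DIV5, and 560.5 and 563 on DIV7 (edgeR log2 fold change 1.69 ± 0.32, adjusted p = 0.00947). Doublecortin (Dcx), a microtubule protein of migrating neurons, had 429.8 CPM on DIV1, 278 and 654 on DIV3, 320.5 and 450.3 on DIV5, and 424 and 741 on DIV7 and did not pass.

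Metabolic lists gave few calls. Of 12 mitochondrially encoded genes 3 were higher at DIV7, mt-Nd4, mt-Co3 and mt-Cytb, with log2 fold changes of 0.99, 0.91 and 0.98; their list is tied to the mitochondrial share that the cell filter limits, and 0 passed by edgeR without DIV3 replicate 1. Of 64 nuclear genes of oxidative phosphorylation 1 passed, Sdhc, which was lower. Of 21 cholesterol synthesis genes 2 were lower at DIV7. Fdps, which makes farnesyl diphosphate, had 496 CPM on DIV1, 1030.4 and 512 on DIV3, 609.9 and 418 on DIV5, and 338 and 192 on DIV7 (edgeR log2 fold change -1.54 ± 0.37, adjusted p = 0.0377). Fdft1, the squalene synthase, had 156 CPM on DIV1, 266 and 189 on DIV3, 181 and 176 on DIV5, and 79.7 and 96.2 on DIV7 (edgeR log2 fold change -1.43 ± 0.33, adjusted p = 0.0234). Both were highest in DIV3 replicate 1. None of 12 apoptosis and p53 genes passed by edgeR, with a median of -0.58.

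The interferon list had 0 calls among 12 tested genes by edgeR, and a median of -2.66. Without DIV3 replicate 1 the median was -0.28 over 5 tested genes, and without DIV3 replicate 2, 5 of 12 genes were called lower at DIV7. Its summed level was 259 CPM on DIV1, 2499.5 and 171 on DIV3, 501 and 165 on DIV5, and 284 and 57.7 on DIV7. DIV3 replicate 1 alone was high. There, Ifitm3 had 159 UMIs of which 75 were in 1 cell, and Isg15 had 48 of which 30 were in 1 cell. In the same library the summed interferon genes were at 2391 CPM of total UMIs in members and 1168 in glutamatergic neurons. The 1 Sst cell of that library stood at 1658 CPM.

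**Figure D4:**
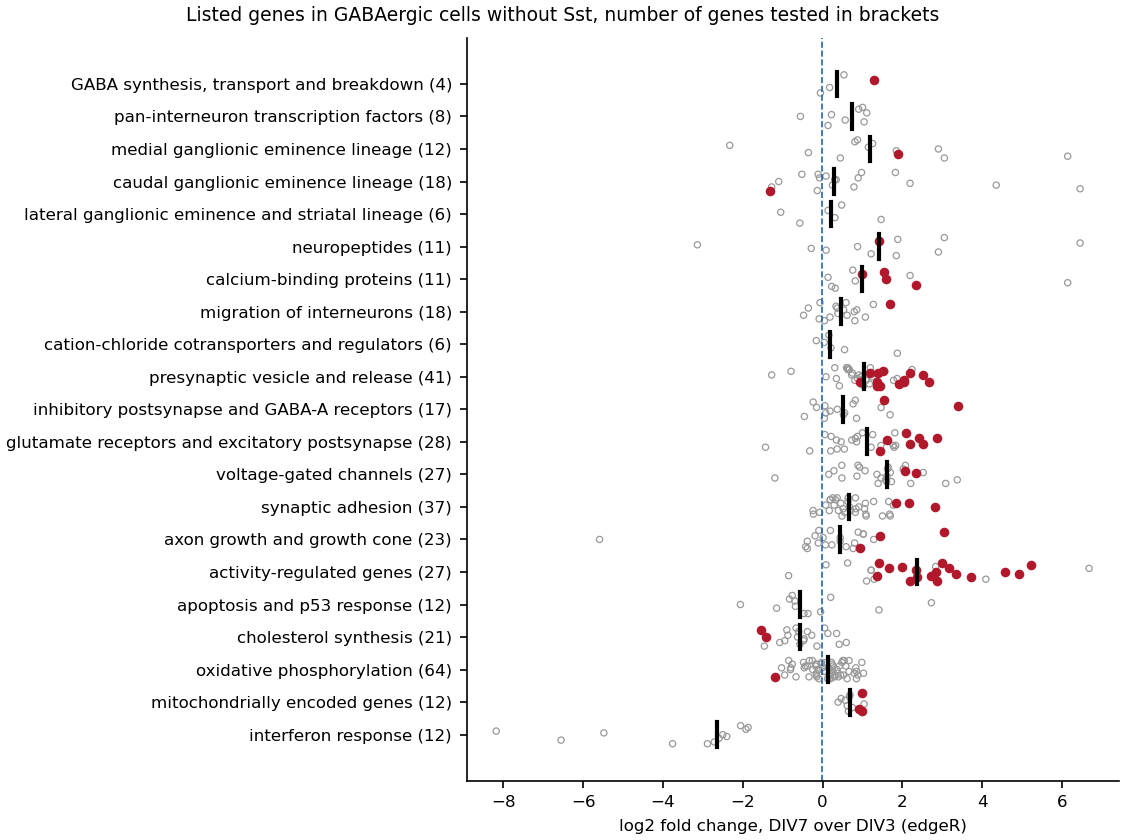
Log2 fold change between DIV7 and DIV3 for each tested gene of 21 lists, with red points for genes that passed edgeR's test at an adjusted p under 0.05, bars for list medians and a dashed line at the median of all tested genes, -0.03. Activity-regulated genes sit farthest right, with 17 of 27 passing and a median of 2.37, followed by voltage-gated channels, for which 2 of 27 passed.

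By size alone, the largest rises between DIV7 and DIV3 among called genes were in transcripts nearly absent at DIV3. Ptgs2 (cyclooxygenase 2), an activity-induced enzyme of prostaglandin synthesis, had 0 UMIs on DIV1, 0 and 0 on DIV3, 2 and 1 on DIV5, and 35 and 16 on DIV7, at least 9.49-fold higher at DIV7 by the limit of 3 counts over DIV3 (adjusted p = 0.00947 by edgeR). Fgl2 was at least 7.63-fold higher, Adcy5, an adenylyl cyclase, at least 6.14-fold higher, Garnl3 at least 6.14-fold higher and Fam13c at least 4.84-fold higher. Of these, Fam13c had 10 UMIs on DIV1 and Fgl2 and Adcy5 had 3, and the DIV3 libraries had 33 members in all. Cab39l gave a ratio of 24.0 (95% interval 4.08 to 969.6, counting error only), and Resp18, a protein of peptide granules, a ratio of 21.8 (95% interval 3.68 to 881, counting error only). Egr2, Klf4 and Egr3 completed the 10.

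The largest falls were in genes of several kinds. Mir670hg, a noncoding host transcript, had 233 CPM on DIV1, 254 and 284 on DIV3, 89.3 and 120.1 on DIV5, and 28.1 and 43.3 on DIV7 (edgeR log2 fold change -2.96 ± 0.38, adjusted p = 0.000488), a call lost under 1 of 19 alternatives. Ezh2, the methyltransferase of the polycomb complex, had 77.8 CPM on DIV1, 48.3 and 47.4 on DIV3, 38.8 and 25.7 on DIV5, and 7.04 and 4.81 on DIV7 (edgeR log2 fold change -2.86 ± 0.70, adjusted p = 0.0334). Pcp4, a calmodulin regulator, had 51.9 CPM on DIV1, 96.6 and 171 on DIV3, 52.4 and 19.3 on DIV5, and 23.5 and 9.62 on DIV7 (edgeR log2 fold change -2.75 ± 0.59, adjusted p = 0.0181). The rule that singled genes out by size took only those without overlap between DIV7 and DIV3. Mir670hg was already lower in both DIV5 libraries than in both DIV3 libraries. Sfrp2, a secreted Wnt regulator, had 35 UMIs on DIV1, 20 and 8 on DIV3, 1 and 4 on DIV5, and 1 and 2 on DIV7, a ratio of 0.0598 (95% interval 0.0116 to 0.194, counting error only). Phgdh, the first enzyme of serine synthesis, had 59.3 CPM on DIV1, 157 and 18.9 on DIV3, 21.4 and 8.58 on DIV5, and 9.38 and 4.81 on DIV7, with DIV3 replicate 1 far above replicate 2. Prdx4 gave a ratio of 0.0372 (95% interval 0.000884 to 0.242, counting error only), Bysl a ratio of 0.105 (95% interval 0.0195 to 0.366, counting error only), Nom1 a ratio of 0.0837 (95% interval 0.0159 to 0.282, counting error only) and Tagln2 a ratio of 0.0465 (95% interval 0.00533 to 0.187, counting error only). Cxcl10 had 36 UMIs in DIV3 replicate 1, 35 of them in 1 cell.

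Over the 7 days the steepest rises beside Ptgs2, Egr2 and Klf4 were in Fxyd7, Frat2, Egr4, Bmp2, Phlda1, Maff and Cx3cl1. Fxyd7, a regulator of the sodium pump, had 0 CPM on DIV1, 16.1 and 18.9 on DIV3, 33.0 and 23.6 on DIV5, and 223 and 188 on DIV7 (edgeR log2 change per day 1.14 ± 0.12, adjusted p = 9.45e-05). Maff, an early response factor, had 18.5 CPM on DIV1, 56.4 and 37.9 on DIV3, 225 and 287 on DIV5, and 483 and 375 on DIV7 (edgeR log2 change per day 0.73 ± 0.08, adjusted p = 0.000151). The secreted ligand Bmp2 had 7.41 CPM on DIV1, 4.03 and 18.9 on DIV3, 54.4 and 36.5 on DIV5, and 113 and 144 on DIV7 (edgeR log2 change per day 0.78 ± 0.11, adjusted p = 0.00056). Fxyd7 was high in both DIV7 libraries only, while Maff was already up in both DIV5 libraries. The fractalkine gene Cx3cl1, a neuronal ligand of microglia, had 7.41 CPM on DIV1, 12.1 and 9.47 on DIV3, 33.0 and 19.3 on DIV5, and 110.2 and 57.7 on DIV7 (edgeR log2 change per day 0.70 ± 0.12, adjusted p = 0.00215). Frat2, an inhibitor of GSK3, had 3.7 CPM on DIV1, 40.2 and 18.9 on DIV3, 231 and 53.6 on DIV5, and 589 and 188 on DIV7 (edgeR log2 change per day 0.91 ± 0.18, adjusted p = 0.028), with replicate 1 above replicate 2 on DIV3, DIV5 and DIV7. The steepest falls were Tagln2, Prdx4, Nom1, Mir670hg, Abracl, Ezh2, Ifitm2, Mex3a, Taf3 and Atp6v0e. Of these, Mex3a, an RNA-binding protein of progenitors, had 156 CPM on DIV1, 56.4 and 94.7 on DIV3, 42.7 and 34.3 on DIV5, and 14.1 and 33.7 on DIV7 (edgeR log2 change per day -0.47 ± 0.08, adjusted p = 0.00239). Atp6v0e, a subunit of the proton pump, had 133 CPM on DIV1, 96.6 and 123 on DIV3, 42.7 and 36.5 on DIV5, and 30.5 and 9.62 on DIV7 (edgeR log2 change per day -0.47 ± 0.08, adjusted p = 0.00301).

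Lhx6 cells and Adarb2 cells were set against each other within libraries, a comparison added after the data were seen. It used the 5 libraries with at least 5 cells of each class (DIV1, DIV3 replicate 1, DIV5 replicates 1 and 2, and DIV7 replicate 1), with the library as a block. Of 2377 genes 63, 2.65%, passed, 41 (1.72%) higher in Lhx6 cells and 22 (0.926%) lower; Lhx6 and Adarb2, which defined the classes, are among them. Levels are given in that order of libraries, as CPM of the total UMIs of the class. Tox2 had 111, 154, 168, 107 and 87.0 CPM in Lhx6 cells, against 14.7, 7.05, 6.41, 17.9 and 0 CPM in Adarb2 cells (edgeR log2 fold change 3.66 ± 0.46, adjusted p = 4.89e-06). Arid5b, a chromatin regulator, had 88.5, 257, 343, 411 and 487 CPM in Lhx6 cells, against 36.7, 63.4, 44.8, 53.7 and 43.4 CPM in Adarb2 cells (edgeR log2 fold change 2.72 ± 0.27, adjusted p = 1.98e-08). Nxph1 had 265, 85.6, 391, 202 and 257 CPM in Lhx6 cells, against 22.0, 28.2, 35.2, 49.2 and 0 CPM in Adarb2 cells (edgeR log2 fold change 3.04 ± 0.36, adjusted p = 2.04e-05). Lhx6 cells were higher in every library for each of the 3, which the rule that singled genes out by size required.

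Maf had 199, 325, 511, 517 and 730.4 CPM in Lhx6 cells, against 198, 197, 151, 148 and 312 CPM in Adarb2 cells (edgeR log2 fold change 1.27 ± 0.22, adjusted p = 0.000824), equal at DIV1 and higher in Lhx6 cells in the later libraries. Nrp1, a semaphorin receptor that steers medial eminence cells, had 309.7, 85.6, 104, 78.7 and 130.4 CPM in Lhx6 cells, against 80.6, 14.1, 25.6, 22.4 and 17.3 CPM in Adarb2 cells (edgeR log2 fold change 2.11 ± 0.34, adjusted p = 0.000219). The AMPA receptor subunit Gria1 had 111, 274, 336, 326 and 491 CPM in Lhx6 cells, against 73.3, 91.6, 135, 125 and 95.4 CPM in Adarb2 cells (edgeR log2 fold change 1.53 ± 0.23, adjusted p = 6.77e-05). Both were higher in Lhx6 cells of all 5 libraries, and Syt4 was also called higher in Lhx6 cells, by 0.80 log2 units. Slc32a1 gave no call (edgeR log2 fold change -0.28 ± 0.21, adjusted p = 0.683). Id2, which the caudal eminence list holds, was higher in Lhx6 cells (edgeR log2 fold change 0.95 ± 0.17, adjusted p = 0.00133).

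Adarb2 cells were marked by the CB1 receptor. Cnr1 had 44.2, 17.1, 55.9, 16.9 and 113 CPM in Lhx6 cells, against 499, 275, 711, 425 and 815 CPM in Adarb2 cells (edgeR log2 fold change -3.44 ± 0.25, adjusted p = 2.29e-11). Npas3, a bHLH factor, had 0, 17.1, 0, 16.9 and 0 CPM in Lhx6 cells, against 95.3, 84.6, 99.3, 80.5 and 165 CPM in Adarb2 cells (edgeR log2 fold change -3.96 ± 0.59, adjusted p = 8.15e-05). Dlx1 had 88.5, 85.6, 136, 50.6 and 87.0 CPM in Lhx6 cells, against 73.3, 190.2, 249.9, 277 and 581 CPM in Adarb2 cells (edgeR log2 fold change -1.74 ± 0.33, adjusted p = 0.00796). Lhx6 cells were lower in every library for Cnr1 and Npas3, and in 4 of 5 for Dlx1, with DIV1 the exception. Nr2f1 was also lower in Lhx6 cells (edgeR log2 fold change -1.02 ± 0.26, adjusted p = 0.0298). Of the 7 tested caudal eminence genes 3 were lower and 1 was higher in Lhx6 cells, and of the 5 tested medial eminence genes 2 were higher.

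Activity genes differed between the classes as well: 5 of 18 tested were lower in Lhx6 cells and 0 were higher. Npas4 had 22.1, 0, 87.9, 236 and 404 CPM in Lhx6 cells, against 51.3, 169, 352, 689 and 581 CPM in Adarb2 cells (edgeR log2 fold change -1.37 ± 0.29, adjusted p = 0.0191), lower in Lhx6 cells of all 5 libraries. Fos, Jun, Junb and Ier2 were also lower, with log2 fold changes of -0.77, -0.78, -1.20 and -1.08, but not evenly over the libraries. Ier2 was higher in Lhx6 cells on DIV1, with 177 against 110 CPM, and Junb slightly so in DIV3 replicate 1, with 137 against 134 CPM. Fos was nearly equal in DIV7 replicate 1, with 2161 CPM in Lhx6 cells against 2185 CPM in Adarb2 cells. The summed list stood, as CPM of total UMIs and over all 7 libraries, at 2189.9 CPM on DIV1, 1438 and 2742 on DIV3, 3523 and 5736 on DIV5, and 9195 and 9666 on DIV7 in Lhx6 cells, against 2280.1 CPM on DIV1, 2804 and 1877 on DIV3, 5552 and 11895 on DIV5, and 10214 and 11309.8 on DIV7 in Adarb2 cells. Both classes were highest at DIV5 or DIV7. Replicate 2 of DIV3 had 4 Lhx6 cells and 5 Adarb2 cells, and replicate 2 of DIV7 had 7 and 3. The call on Fos was lost under 5 of 8 alternatives and that on Junb under 4 of 8, among them without either DIV5 library.

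Genes too sparse or uneven for that test showed in the share of cells with a UMI, pooled over all 7 libraries. The days weighed differently in the classes: 17 and 7 of the 67 Lhx6 cells, against 10 and 3 of the 96 Adarb2 cells, came from the DIV7 libraries. Npy was found in 76.1% of 67 Lhx6 cells, against 11.5% of 96 Adarb2 cells, with 7.41% of microglia as background; its test did not pass (edgeR log2 fold change 4.71 ± 1.06, adjusted p = 0.189). Calbindin (Calb1) was found in 44.8% of Lhx6 cells, against 2.08% of Adarb2 cells and 0.118% of microglia. Over the pooled cells both were thus mostly in Lhx6 cells. By level, Npy went the other way in the DIV1 library, with 22.1 CPM in Lhx6 cells, against 117 CPM in Adarb2 cells. It was higher in Lhx6 cells in the other libraries compared. The serotonin receptor Htr3a was found in 1.49% of Lhx6 cells, against 42.7% of Adarb2 cells and 0% of microglia, and Npas1 in 1.49% of Lhx6 cells, against 33.3% of Adarb2 cells and 0.941% of microglia. Calretinin (Calb2) was found in 2.99% of Lhx6 cells, which is under the 4.24% of microglia, against 20.8% of Adarb2 cells. Cck was found in 31.3% of Lhx6 cells, against 47.9% of Adarb2 cells and 3.76% of microglia, and Reln in 52.2% of Lhx6 cells, against 61.5% of Adarb2 cells and 3.53% of microglia. Both classes were above the microglia share for these 2 genes. Vip was in 0 of 67 Lhx6 cells and in 6.25% of Adarb2 cells.

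With cells thinned to 3000 UMIs, which leaves out 1 Lhx6 cell and 5 Adarb2 cells, the expected share was 64.2% for Npy in Lhx6 cells, against 7.09% in Adarb2 cells. In microglia the share seen after a random draw was 2.43%, over the 822 of 850 cells deep enough. For Calb1 the expected share was 16.9% in Lhx6 cells, against 0.320% in Adarb2 cells, and for Htr3a 0.251% in Lhx6 cells, against 22.0% in Adarb2 cells. The order of both classes was the same as before thinning for these 3 genes. The 25 cells with UMIs of both class genes had shares nearer those of Lhx6 cells, with Npy in 84.0%, Nxph1 in 92.0%, Cnr1 in 36.0% and Htr3a in 4.00% of them.

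**Figure D5:**
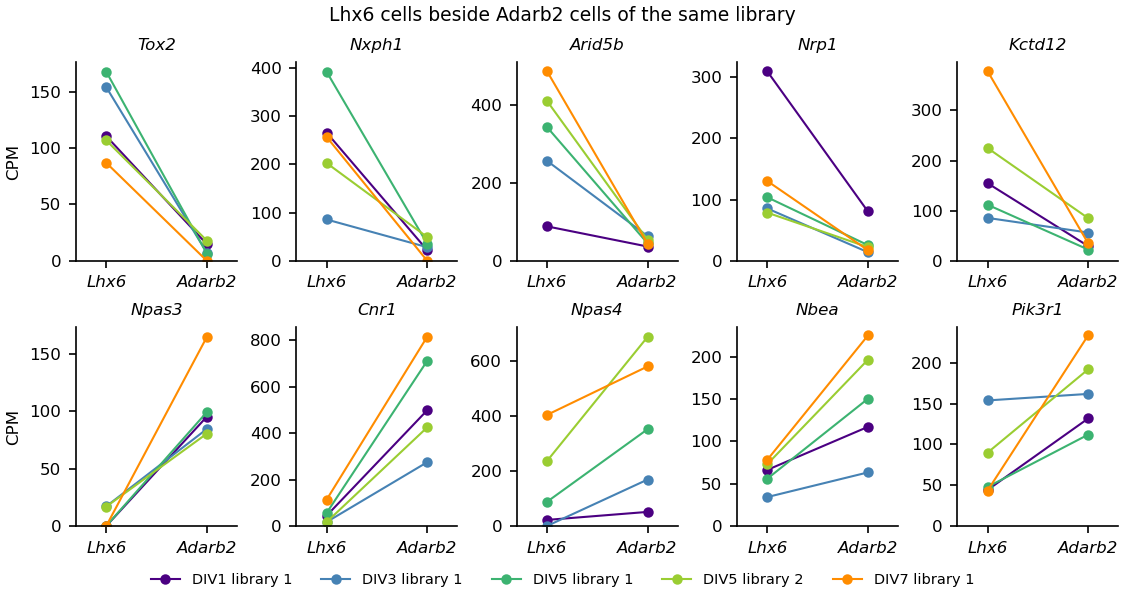
Levels of 10 genes in Lhx6 cells and Adarb2 cells of the 5 libraries compared, as CPM of the total UMIs of each class on the vertical axis. Each pair of points joined by a line is 1 library; Cnr1 is lower in Lhx6 cells in every library, and Nxph1, Arid5b and Tox2 are higher.

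Members were also compared with the cells that met the same rule but held at least 5 Sst UMIs (Sst cells), in the 3 libraries with at least 10 of both, DIV1 and DIV5 replicates 1 and 2, with the library as a block. Of 3945 genes 52, 1.32%, passed, 29 (0.735%) higher in members and 23 (0.583%) lower, Sst itself included. Levels are CPM of the total UMIs of the class in that order of libraries. The chemokine Cxcl14 had 113, 199.5 and 194 CPM in members, against 0, 35.9 and 4.64 CPM in Sst cells (edgeR log2 fold change 3.73 ± 0.48, adjusted p = 9.66e-05). Adarb2 had 387, 306 and 192 CPM in members, against 31.6, 7.17 and 41.8 CPM in Sst cells (edgeR log2 fold change 3.20 ± 0.34, adjusted p = 1.02e-05). Cnr1 had 267, 435 and 214 CPM in members, against 47.4, 14.3 and 69.6 CPM in Sst cells (edgeR log2 fold change 2.57 ± 0.39, adjusted p = 0.0116). Members were higher in all 3 libraries, as the same rule required. Sv2c, a vesicle protein, and Thy1, a surface glycoprotein, completed the 5 largest rises, with log2 fold changes of 2.68 and 2.81.

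Lower in members was Npy, with 179, 403 and 553 CPM in members, against 971, 1850.1 and 2873 CPM in Sst cells (edgeR log2 fold change -2.36 ± 0.13, adjusted p = 1.22e-11). Satb1, a factor needed for somatostatin cells, had 29.2, 11.2 and 20.0 CPM in members, against 47.4, 43.0 and 121 CPM in Sst cells (edgeR log2 fold change -1.94 ± 0.46, adjusted p = 0.0297). Lhx6 had 51.2, 101 and 102 CPM in members, against 118, 359 and 162 CPM in Sst cells (edgeR log2 fold change -1.30 ± 0.27, adjusted p = 0.0118). Members were lower in every library for all 3; Mpped2, Alkal2 and Rasl11a completed the 5 largest falls, with log2 fold changes of -2.16, -2.15 and -2.03. Of 9 medial eminence genes tested 5 were lower in members, and of 13 caudal eminence genes 3 were higher. Somatostatin cells come from the medial eminence, whereas members mixed Lhx6 and Adarb2 cells. The split on Sst thus bears on the calls of lineage genes, which are given as a description. In the glutamate receptor list 4 of 20 were lower in members, Gria1, Grm5, Cnih2 and Cacng3. Slc32a1 gave no call (edgeR log2 fold change 0.04 ± 0.20, adjusted p = 0.973). Of 5 tested radial glia and astrocyte markers 4 were higher in members, with summed levels of 859, 890 and 1259 CPM in members, against 371, 129 and 418 in Sst cells. Oligodendrocyte markers summed to 43.8, 41.0 and 475 CPM in members, against 103, 4030 and 32.5 in Sst cells, so Sst cells of DIV5 replicate 1 were far higher. The part of glial RNA on either side of this comparison was not tested. A count of 5 Sst UMIs also needs depth, so shallow Sst cells can fall among the members.

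Lastly, the change between DIV7 and DIV3 was compared with that in glutamatergic neurons of the same libraries, 3418 cells with at least 3 UMIs of Neurod2 and Neurod6 and no Gad UMI. The class by day interaction passed for 203 of 10849 genes, 1.87%, 155 (1.43%) with a more positive change in members and 48 (0.442%) with a more negative one; with total-count scaling it was 79 and 60. Levels are CPM of the total UMIs of the class. Stmn2 had 3116 and 3089 CPM in members at DIV7 and 1359 and 1132 CPM in members at DIV3, against 2897 and 3819 CPM in glutamatergic neurons at DIV7 and 3588 and 2986 CPM there at DIV3 (edgeR log2 difference of the changes 1.47 ± 0.16, adjusted p = 1.25e-16). In glutamatergic neurons the level at DIV3 was already near the members' level at DIV7. Sncb had 445 and 678 CPM in members at DIV7 and 123 and 76.7 CPM in members at DIV3, against 251 and 253 CPM in glutamatergic neurons at DIV7 and 183 and 203 CPM there at DIV3 (edgeR log2 difference of the changes 2.09 ± 0.28, adjusted p = 9.82e-11). Cplx1 had 363 and 610.2 CPM in members at DIV7 and 65.5 and 115 CPM in members at DIV3, against 187 and 213 CPM in glutamatergic neurons at DIV7 and 136 and 141 CPM there at DIV3 (edgeR log2 difference of the changes 2.13 ± 0.30, adjusted p = 3.76e-09). Both rose more steeply in members and were lower there than in glutamatergic neurons at DIV3.

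Id2, an inhibitor of bHLH factors, had 1033 and 1300.4 CPM in members at DIV7 and 1028 and 1046 CPM in members at DIV3, against 430.2 and 401 CPM in glutamatergic neurons at DIV7 and 875 and 771 CPM there at DIV3 (edgeR log2 difference of the changes 1.32 ± 0.18, adjusted p = 2.72e-10), level in members and lower at DIV7 in glutamatergic neurons; the difference took the other sign, without passing, under the stricter cell filter. The calcium kinase Camk2a, a gene of principal neurons, went the other way, with 19.5 and 16.8 CPM in members at DIV7 and 23.1 and 9.59 CPM in members at DIV3, against 212 and 173 CPM in glutamatergic neurons at DIV7 and 15.5 and 29.2 CPM there at DIV3 (edgeR log2 difference of the changes -3.22 ± 0.81, adjusted p = 0.00869). Camk2a was low in members on both days, and its difference took the other sign, without passing, with thinned cells. Rph3a, a vesicle protein, had 214 and 215 CPM in members at DIV7 and 84.7 and 76.7 CPM in members at DIV3, against 42.1 and 44.3 CPM in glutamatergic neurons at DIV7 and 2.36 and 3.51 CPM there at DIV3 (edgeR log2 difference of the changes -2.40 ± 0.48, adjusted p = 0.000181), higher at DIV7 in both classes from a far lower level in glutamatergic neurons. Of 49 presynaptic genes 7 had a more positive change in members and 1 a more negative one.

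Of 31 activity genes 4 had a more positive change in members: Jun, Ier2, Btg2 and Nr4a2. Jun had 802 and 837 CPM in members at DIV7 and 196 and 144 CPM in members at DIV3, against 344 and 355 CPM in glutamatergic neurons at DIV7 and 205 and 462 CPM there at DIV3 (edgeR log2 difference of the changes 2.06 ± 0.32, adjusted p = 0.000181). Fos and Npas4 gave no call (edgeR log2 difference of the changes 0.51 ± 0.95, adjusted p = 0.928 for Fos and edgeR log2 difference of the changes 0.36 ± 1.29, adjusted p = 0.975 for Npas4). Summed as CPM of total UMIs, the list stood at 2916 CPM on DIV1, 2210.5 and 2513 on DIV3, 4761 and 8983 on DIV5, and 10119 and 10521 on DIV7 in members, against 2217 CPM on DIV1, 1673 and 6477 on DIV3, 5072 and 9825 on DIV5, and 8843 and 9401 on DIV7 in glutamatergic neurons. Both kinds of neuron ended at a similar level at DIV7, and in glutamatergic neurons DIV3 replicate 2 was already high while in members it was not.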

How the data were processed

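Single-cell matrices of 7 libraries were used. Per the submitters' processing notes the reads were processed with Cell Ranger 4.0.0 and build mm9; the matrix headers name software version 3.0.2. The files hold raw UMI counts per gene and barcode as deposited by the authors, with no normalization. Filters on cells were at least 500 genes and at most 10% mitochondrial counts. Scrublet (scanpy 1.11.5) marked 3 to 75 doublets per library, 4 of them members; it marked under 0.5% in most libraries, so leaving out the highest-scoring barcodes, at a rate of 0.8% per 1000 barcodes, was tried too. Counts were summed per library over members (at least 10 cells) and tested in R 4.3.3 with edgeR 4.0.16 by its robust quasi-likelihood F test after filterByExpr and TMM scaling: 1 mean per day or day as a number, a library block for comparisons within libraries, edgeR's default prior count for the printed fold changes. A prior count of 2 was used only for the log2 CPM that were correlated between genes or libraries. Exact permutation (scipy 1.17.1) tested the relation of shares to day, with 95% Clopper-Pearson intervals. The alternatives were DESeq2 1.42.0, total-count scaling, no low-count filter, other cell filters, thinning to 3000 UMIs and leaving out libraries. The edgeR steps were tested on simulated data. Genes singled out by size were the 10 largest rises and falls (5 each for Sst cells and glutamatergic neurons) among called genes with a mean of at least 20 CPM, applied to the members' own level for the interaction, and no overlap between sides (for the trend, an absolute Spearman rho of at least 0.8). The member rule, gene lists and tests were chosen with earlier results of these data known. Promoters came from RefSeq (GRCm38.p6). A few listed genes are not reported here.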

Additional observations from a re-analysis of the deposited data

Results flagged for a closer look

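For 10 genes the change between DIV7 and DIV3 differed between members and glutamatergic neurons by the test of the difference itself, edgeR's class by day interaction with Benjamini-Hochberg adjustment, and was among the 5 largest in its direction. Each value is the log2 change in members minus that in glutamatergic neurons. The positive ones were 9.82 for Garnl3 (adjusted p = 0.0118), 9.38 for Fam13c (0.0196), 9.29 for Adcy5 (0.0201), 5.57 for Resp18 (0.000481) and 4.79 for Lcn2 (1.05e-06). Garnl3 had 26 and 7 UMIs in members at DIV7 and 0 and 0 at DIV3, against 58 and 26 in glutamatergic neurons at DIV7 and 145 and 81 at DIV3. Garnl3, Fam13c and Adcy5 were at 0 UMIs in members at DIV3, so the size of their difference depends on the prior count and is no bound. Lcn2, an acute-phase protein of reactive glia, had 43 UMIs in members of DIV7 replicate 1, of which 42 were in 1 cell.

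The negative ones were -5.41 for Sfrp2 (adjusted p = 0.0198), -4.25 for Col11a1 (0.0311), -3.87 for Calb1 (0.0339), -3.60 for H19 (0.0416) and -3.03 for Bysl (0.0376). Calb1 had 41.1 and 58.9 CPM in members at DIV7 and 53.9 and 19.2 CPM in members at DIV3, against 6.19 and 8.12 CPM in glutamatergic neurons at DIV7 and 0.438 and 0.16 CPM there at DIV3. It was higher in members on both days, while glutamatergic neurons held under 1 CPM at DIV3. Sfrp2 had 1 and 2 UMIs in members at DIV7 and 20 and 8 at DIV3, against 5 and 3 in glutamatergic neurons at DIV7 and 10 and 2 at DIV3.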

How the results depend on the processing

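Counts of called genes depended on the cells and libraries that entered, and these limits touch every list: DIV3 had 33 members in 2 libraries, and the calls between DIV7 and DIV3 fell to 12 without DIV3 replicate 1. Leaving out 1 library at a time gave 12 to 296 calls between DIV7 and DIV3 (main 254), 0 to 7 between DIV3 and DIV1 (main 1), 170 to 563 for the trend (main 507; 282 without the DIV1 library, 170 and 210 without DIV7 replicates 1 and 2), 29 to 153 against Sst cells (main 52; 153 without the DIV1 library and 29 without DIV5 replicate 2), 77 to 189 against glutamatergic neurons (main 203; 77, 113 and 98 without DIV3 replicate 1, DIV3 replicate 2 and DIV7 replicate 1), and 21 to 85 between Lhx6 and Adarb2 cells (main 63; 21 and 26 without DIV5 replicates 1 and 2). Between DIV7 and DIV3 there were 121 calls without DIV7 replicate 1 and 56 without DIV7 replicate 2. DESeq2 gave 94, 0, 14, 15 and 31 calls for DIV7 against DIV3, DIV3 against DIV1, Sst cells, glutamatergic neurons and Lhx6 against Adarb2 cells. Without a low-count filter the counts were 507, 50, 800, 105 and 157 for DIV7 against DIV3, DIV3 against DIV1, the trend, Sst cells and Lhx6 against Adarb2 cells. The stricter cell filter gave 13 calls between DIV7 and DIV3, 0 between DIV3 and DIV1, 72 for the trend and 34 against glutamatergic neurons, and thinned cells gave 71, 0, 174 and 20, and 13 against Sst cells. Requiring 6 Gad1 and Gad2 UMIs gave 3 calls between DIV3 and DIV1 and 190 for the trend, and requiring no Sst UMI gave 0 between DIV3 and DIV1 and 33 against Sst cells. A fit of the DIV3 and DIV7 libraries alone gave 133 calls. The stricter filter left out DIV7 replicate 2, which had 9 members under it, and requiring 6 Gad UMIs left out DIV3 replicate 2, which had 7. The Lhx6 share's r stayed positive, at 0.875 under the stricter filter, 0.667 with thinned members and 0.849 to 0.963 leaving out 1 library, but its adjusted p was over 0.05 in 7 of these settings. The causes were not tested.

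Among results called in the main fit, signs turned, without passing, for Sox9 between DIV7 and DIV3 (-0.89 under the stricter filter). Against glutamatergic neurons they turned, also without passing, for Cox5a (-0.15), Sox9 (-1.32), Id2 (-0.28) and Ncald (-0.32) under the stricter filter and for Camk2a (4.21) with thinned cells. Under the stricter filter DIV7 rested on replicate 1 alone. The labels give replicate numbers 1 and 2 at DIV3, DIV5 and DIV7, and the deviations of same-numbered libraries correlated at 0.206 for DIV3 with DIV5, 0.146 for DIV3 with DIV7 and 0.266 for DIV5 with DIV7 over 6252 genes; the labels do not say what a number marks. The fit with the replicate block, over the 6 libraries without DIV1, called 562 genes between DIV7 and DIV3, against 171 in those libraries without it. Under the block 21 single-gene results gained a call, Dlx2, Slc12a5, Maf and Syt1 among them, and 0 lost one. Of the single-gene results under all alternatives, 9219 kept their side of the threshold, which counts uncalled results whatever their sign. Another 1328 lost the call, 210 gained one, and 6 that had passed in the main fit changed sign. Sst cells under the stricter filter or with 6 Gad UMIs, and subgroup shares with the rule applied to thinned cells, left too few libraries for a value.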

Other observations

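The glial factor Sox9 was called in members, with 144 CPM on DIV1, 60.4 and 104 on DIV3, 243 and 538 on DIV5, and 319 and 433 on DIV7 (edgeR log2 fold change 2.28 ± 0.45, adjusted p = 0.0156). DIV5 replicate 2 was the highest of all. The call was lost without DIV3 replicate 1 or without DIV7 replicate 2. Gfap, an astrocyte filament, came mostly from 1 member, which held 251 of the 308 UMIs in DIV7 replicate 1, and 76 of the 127 Slc1a2 UMIs of that library came from 1 cell.

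Insulin-like growth factor 1 (Igf1), which promotes neuronal survival, had 511 CPM on DIV1, 125 and 189 on DIV3, 223 and 268 on DIV5, and 162 and 111 on DIV7, highest in the DIV1 library. It was higher in members than in Sst cells, with 504, 214 and 250.3 CPM in members, against 174, 158 and 78.9 CPM in Sst cells (edgeR log2 fold change 1.18 ± 0.23, adjusted p = 0.00596).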
